A study of Mus musculus with 2 samples.

Results

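Nucleoporins and nuclear transport receptors were examined in cells sorted from the first growing hair follicles of mouse pups, early bulge cells against cells of the outer root sheath (ORS) outside the bulge. The genes were chosen by name: every probe set annotated to a single symbol that starts with Nup, Kpna, Kpnb, Ipo, Xpo or Tnpo followed by a number was taken, and Xpo5 was left out. This gave 105 probe sets for 40 genes, of 34945 probe sets annotated to a single gene (18193 genes) among 45101 on the array. Of the 40 genes, 38 were measured, which means that at least 1 array reached a signal of 57.8, and all 38 lay above that floor on both arrays. Kpna7, an importin alpha of oocytes, and Nup210l, a relative of Nup210 known from testis, stayed below it on both.

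Both populations came from back skin of CD-1 pups at postnatal day 4 that carried K14-RFP and Sox9-EGFP, so both had the red reporter driven by the keratin 14 promoter of basal keratinocytes and a green reporter of Sox9, which encodes a transcription factor of follicle stem cells. The early bulge population was bright for both colours. The non-bulge ORS population was bright for red and negative for green. Each was measured on 1 array, the labels do not say how many pups were pooled, and no ratio has a replicate check or a p-value. Each ratio sets the early bulge signal over the ORS signal, on the log2 scale, from the deposited MAS5 values.

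The nuclear pore complex is the channel through which RNA and protein pass between nucleus and cytoplasm. Nucleoporins build its scaffold rings, its membrane anchor, its central channel and the structures on its cytoplasmic and nuclear faces. Importins and exportins carry cargo through it, and the small GTPase Ran, bound to GTP in the nucleus, sets the direction by releasing import cargo and loading export cargo. Dividing cells must build pores for each daughter nucleus, and several nucleoporins of the scaffold also act at kinetochores in mitosis.

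The 2 arrays had median signals of 102.2 and 88.0 for early bulge and non-bulge ORS, with 62.0% and 58.1% of all probe sets at or above the floor. All 9 markers of basal and ORS keratinocytes were higher on the early bulge array, among them Sox9, which the gate selected (4061 and 676). All 7 measured dermal fibroblast markers were at least 2-fold lower on the early bulge array, beside 4.78% of all measured genes. Summed signals over the list were 4257 for early bulge and 52237 for non-bulge ORS. Their defining genes were bright on the ORS array, such as Col1a2 with 1079 and 14484 for early bulge and ORS and Lum with 118 and 3539. Of 6 pericyte and smooth muscle markers, 5 were also at least 2-fold lower (summed signals 3853 and 20995). Of 21 measured replication and mitosis genes, all 21 were lower on the early bulge array and 15 passed 1.5-fold (median log2 ratio -0.80). Of all measured genes, 47.0% were lower and 12.8% lower by 1.5-fold. The counts for these lists used the brightest probe set of each gene. Other probe sets of Tpx2 (0.27), Mcm5 (0.17) and Rgs5 (0.74) were higher in early bulge, and others of Dcn (-0.21) and Pdgfra (-0.08) were lower by less than 1.5-fold. The 6 melanocyte markers had a median of 0.19. Of 5 immune markers, 2 were measured, with 1 higher and 1 lower in early bulge, and Ptprc and Cd3e were below the floor on both arrays. Of 4 endothelial markers, Pecam1 and Cdh5 were below the floor on both, and the 2 measured ones were lower in early bulge, Tek with 70.0 and 286 for early bulge and ORS and Kdr with 18.0, below the floor, and 76.6. The part that RNA of fibroblasts, pericytes or endothelium or the share of dividing cells had in the ratios of pore and transport genes was not tested. Both arrays were scaled to one target, so the total RNA of a cell is not measured. In sorted populations a smaller share of dividing cells and less RNA of these genes, relative to total RNA, within each cell cannot be told apart.

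Most nucleoporin and transport receptor genes had a lower signal on the early bulge array. Of the 38 measured genes, 33 were lower and 5 higher, against a background of 47.0% of all 13252 measured genes that were lower. A difference of at least 1.5-fold, which is 0.58 on the log2 scale, was found for 12 of the 38, all of them lower in early bulge, where the background was 12.8% of all genes lower and 17.1% higher. At 2-fold, 2 of the 38 were lower and none higher, beside 4.78% and 7.30% of all genes, so that the 2-fold count of the 38 lay near its background. The median log2 ratio was -0.52 over the 38 genes and 0.04 over all measured genes. The differences were thus small for single genes but mostly in 1 direction.

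The 18 measured nucleoporins were all lower in early bulge, 8 passed 1.5-fold and the median was -0.55. Of the 20 measured transport receptors, 15 were lower, 4 passed 1.5-fold and the median was -0.43. The share lower by 1.5-fold was 44.4% for nucleoporins and 20% for transport receptors, beside 12.8% of all measured genes. Of all measured genes, 47.0% were lower by any size. After quantile normalization and loess scaling all 18 nucleoporins were still lower. Median centring lowered each of these ratios by the same amount, so it could not have made a lower gene higher. When the probe sets of a gene were averaged, 17 of 18 were lower, with Nup214 at 0.05.

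**Figure D1:**
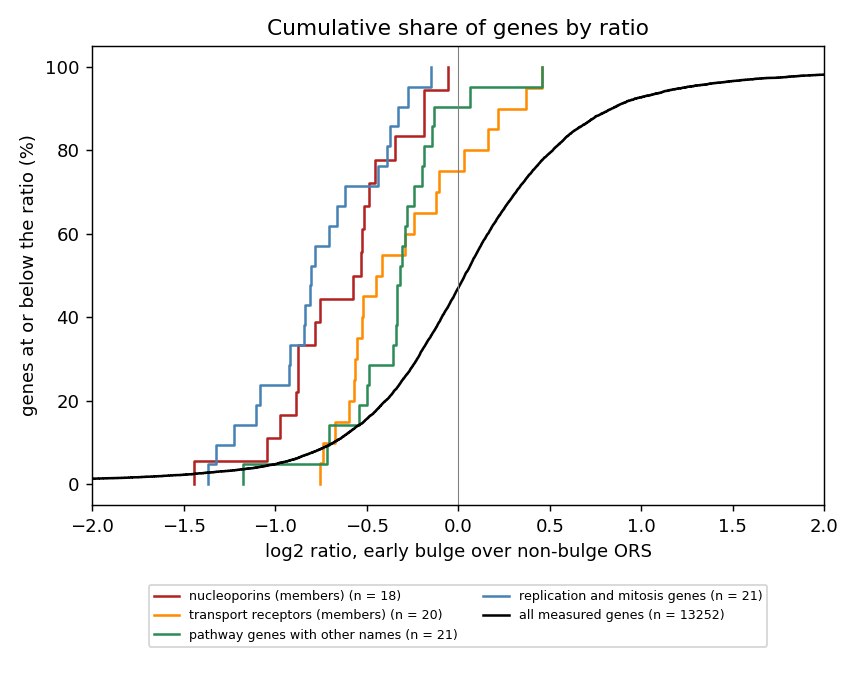
Cumulative share of genes (vertical axis, %) at or below each log2 ratio of early bulge over non-bulge ORS (horizontal axis) for the 18 nucleoporins, the 20 transport receptors, 21 pathway genes with other names, 21 replication and mitosis genes and all 13252 measured genes. The nucleoporin curve lies wholly left of 0, while 47.0% of all genes do.

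**Figure D2:**
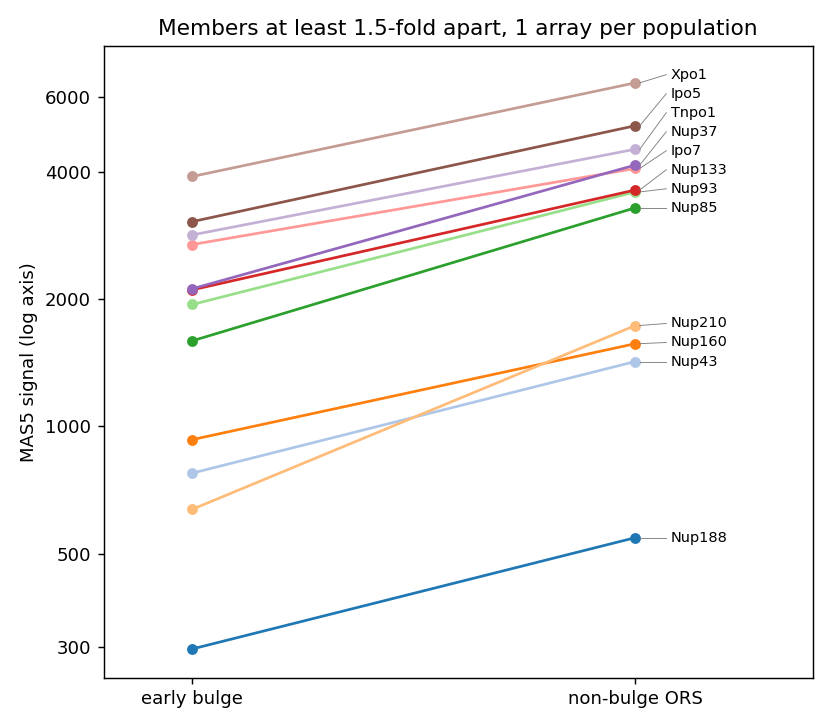
MAS5 signal (log axis) on the early bulge array and the non-bulge ORS array for the 12 genes at least 1.5-fold apart, 1 line per gene with 1 array per population. Each line is lower at early bulge, and the steepest is that of Nup210.

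The 300 bases around the annotated start were looked up for these genes, since most of them lay on the same side of 0. RefSeq (GRCm38.p6) gave 39 such windows, from 250 bases before to 50 after a start, for 32 of the 40 genes. Kpna1, Kpna3, Kpna6, Nup43, Nup85, Nup210l, Xpo4 and Xpo7 had no entry. The windows of Nup210 and Nup37 are shown because these had the lowest ratios among genes with an entry, and those of Xpo1 and Xpo6 because these exportins lay on opposite sides of 0. Nup37 had 2 overlapping windows, and the one with the lower coordinate is shown. Its other window also held the CCAAT box and the ETS core. Letters in capitals mark the CCAAT box (CCAAT) and the ETS core (CCGGAAG), on either strand. Also searched were the E-box CACGTG and the E2F forms TTTGGCGC and TTTCGCGC, and no match of these fell in the 4 windows shown.
Nup210 (chr6:91116777-91117076, strand -): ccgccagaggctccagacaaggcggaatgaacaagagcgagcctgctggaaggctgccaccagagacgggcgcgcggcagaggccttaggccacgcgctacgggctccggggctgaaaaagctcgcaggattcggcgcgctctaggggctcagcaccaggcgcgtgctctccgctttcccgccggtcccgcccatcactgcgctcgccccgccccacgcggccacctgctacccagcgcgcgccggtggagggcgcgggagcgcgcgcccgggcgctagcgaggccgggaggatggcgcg
Nup37 (chr10:88146742-88147041, strand +): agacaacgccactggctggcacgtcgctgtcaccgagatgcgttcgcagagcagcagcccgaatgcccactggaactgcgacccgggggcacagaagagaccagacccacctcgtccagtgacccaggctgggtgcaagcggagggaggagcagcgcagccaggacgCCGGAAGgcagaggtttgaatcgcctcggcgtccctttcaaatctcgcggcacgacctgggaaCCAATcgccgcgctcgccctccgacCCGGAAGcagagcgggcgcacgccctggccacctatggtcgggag
Xpo1 (chr11:23255791-23256090, strand +): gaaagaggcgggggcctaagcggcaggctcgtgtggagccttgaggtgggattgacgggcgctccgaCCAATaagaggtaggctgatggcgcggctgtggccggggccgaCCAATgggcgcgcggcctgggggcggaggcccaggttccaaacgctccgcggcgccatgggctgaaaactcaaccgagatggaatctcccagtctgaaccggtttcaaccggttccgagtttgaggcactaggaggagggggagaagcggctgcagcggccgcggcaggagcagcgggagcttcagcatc
Xpo6 (chr7:126200452-126200751, strand -): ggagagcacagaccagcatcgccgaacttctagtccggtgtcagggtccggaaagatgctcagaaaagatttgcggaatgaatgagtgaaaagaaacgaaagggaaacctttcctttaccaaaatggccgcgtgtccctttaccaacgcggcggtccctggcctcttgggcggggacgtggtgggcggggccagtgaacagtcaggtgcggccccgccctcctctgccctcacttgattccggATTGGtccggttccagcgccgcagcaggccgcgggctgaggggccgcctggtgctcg

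The window of Nup210 held none of the searched letters, that of Nup37 held the CCAAT box and the ETS core, and those of Xpo1 and Xpo6 held the CCAAT box, although Xpo1 was lower and Xpo6 higher in early bulge. Over all 39 windows of the pore and transport genes, 22 (56.4%) held CCAAT, against 37.4% of 32817 windows of all genes. The ETS core was in 7 (17.9%), against 8.86% of all windows. The E-box was in 6 (15.4%), against 7.15%, and an E2F form in 1 (2.56%), that of Ipo7, against 0.81%. Some windows overlap because a gene can have several starts. The 18 measured genes with CCAAT in a window had a median log2 ratio of -0.50, and the 13 without it one of -0.57. A match of letters is no evidence of a bound factor.

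The Y complex forms the outer scaffold rings of the pore and seeds pore assembly after mitosis. All 6 of its members under the naming rule were lower in early bulge and 5 passed 1.5-fold (median log2 ratio -0.83). Of all measured genes, 12.8% were lower by that size. Its subunits Seh1l and Sec13, named otherwise, were lower by less than 1.5-fold (-0.28 and -0.33). Nup85 had signals of 1593 in early bulge and 3288 in non-bulge ORS, a 2.06-fold lower value. Nup37, which joins the ring as a peripheral subunit, had 2115 in early bulge and 4150 in ORS, 1.96-fold lower. Nup43, another peripheral subunit, had 775 and 1423 in early bulge and ORS, 1.84-fold lower. These 3 genes had the lowest ratios of the complex. The second probe set of Nup85 gave -0.83 and that of Nup43 gave -1.01, while Nup37 had only 1.

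Nup133, at the tip of the Y-shaped stem, had signals of 2103 in early bulge and 3623 in ORS (log2 ratio -0.78). Nup160, in a short arm, had 930 and 1568 (-0.75). Nup107, the partner of Nup133 in the stem, had 1989 and 2964 (-0.58), just under 1.5-fold. All of these were lower in early bulge, but 1 of the 5 measured probe sets of Nup133 was higher there, with signals of 215 and 133 (0.69).

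The inner ring links the scaffold to the membrane and to the central channel. All 4 measured members were lower and 2 passed 1.5-fold (median -0.70), beside 12.8% of all measured genes lower by that size. Nup93, which holds the ring together, had 1942 in early bulge and 3585 in ORS, 1.85-fold lower. Nup188, a large partner of Nup93, had 297 and 545, 1.83-fold lower, and its other probe set gave -0.75 with the early bulge signal below the floor, which makes that ratio a bound. Nup205, the alternative partner of Nup93, had a log2 ratio of -0.53. Nup155, which binds the membrane, had 1351 in early bulge and 1892 in ORS (-0.49). The 2 measured probe sets of Nup155 differed little (-0.52 and -0.49), and the second probe set of Nup205 gave -0.74.

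Nup210, a membrane-spanning nucleoporin whose level is known to differ between cell types, had the lowest ratio of the 38 genes. Its signals were 636 in early bulge and 1732 in ORS, a 2.72-fold lower value (log2 ratio -1.44), and 2.46% of all measured genes had a lower ratio still. The value rests on 1 probe set, because the other stayed below the floor on both arrays. Nup210 was also the only measured gene of the membrane role, so this value describes 1 gene and not the membrane part of the pore.

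The nucleoporins of the central channel, the cytoplasmic face and the nuclear basket were lower by less than 1.5-fold on their main probe sets. Nup54 of the central channel had a log2 ratio of -0.53, and all 5 of its probe sets were lower (-0.84 to -0.02), 2 of them with the early bulge signal below the floor. Nup62, which lines the channel with repeats that bind transport receptors, had the ratio closest to 0 among the nucleoporins, with signals of 9940 in early bulge and 10324 in ORS (-0.05). Its other probe sets ran from -0.65 to 0.30, and -0.65 was the value when probe sets with a suffix for shared or similar targets were left out. The size for Nup62 therefore depends on the probe set. On the cytoplasmic side, Nup98, which sits on both faces and also binds chromatin, had -0.46 (other probe set -0.90), Nup88 -0.34 and Nup214, the docking site for exportins, -0.19 with signals of 1594 in early bulge and 1814 in ORS (other probe set 0.29). In the nuclear basket, Nup50, a cofactor of importin alpha release, had -0.52 (probe sets -0.72 to -0.13) and Nup153, the basket's anchor, -0.19 with signals of 5340 in early bulge and 6072 in ORS (probe sets -0.47 to -0.14).

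**Figure D3:**
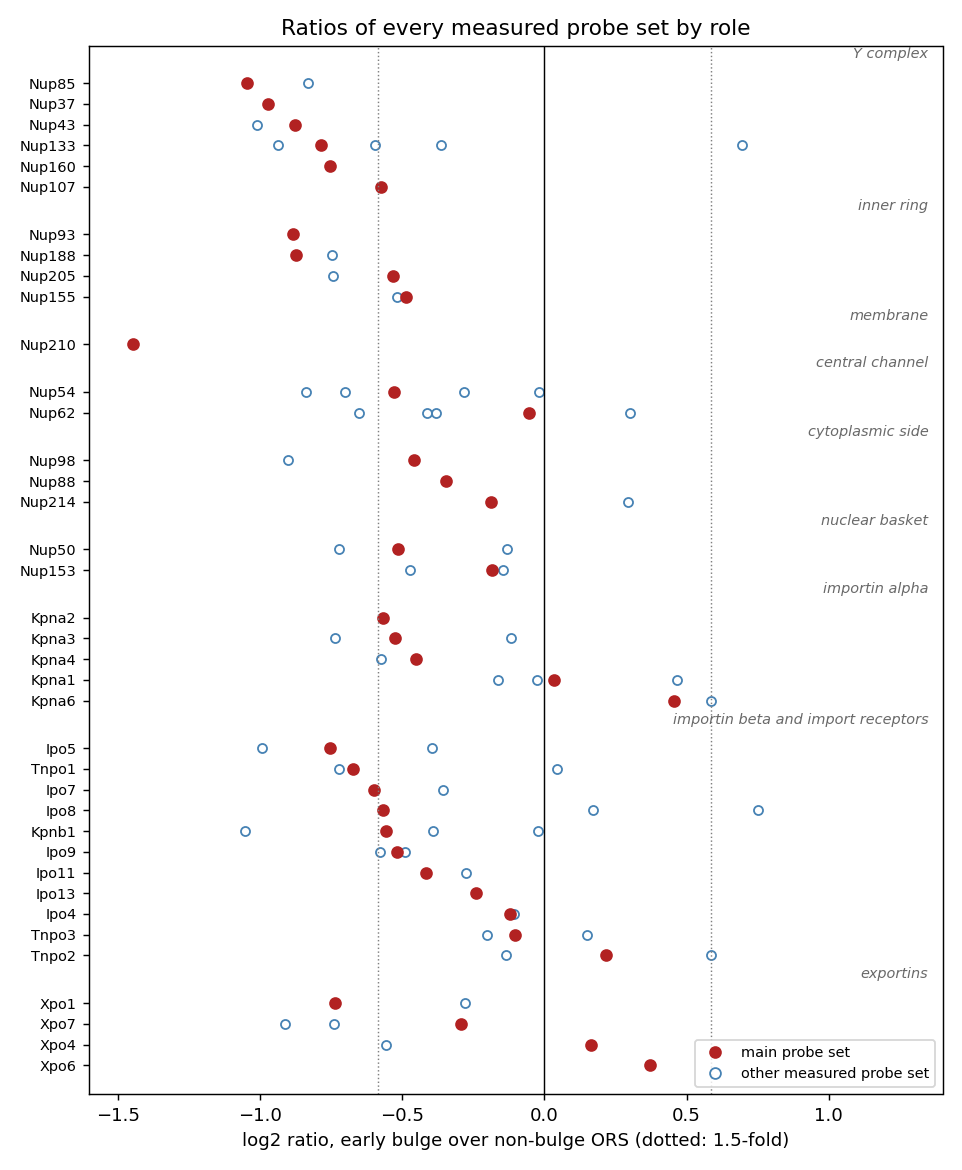
Log2 ratio of early bulge over non-bulge ORS (horizontal axis) for each measured probe set of the 38 genes, grouped by role, with the main probe set filled and the others open. Dotted lines mark 1.5-fold. After Nup210, alone in its role here, the Y complex and the inner ring have the lowest medians by role (-0.83 and -0.70). Kpna6, Xpo6, Tnpo2, Xpo4 and Kpna1 have main probe sets right of 0. Pore genes with other names are not drawn or counted in these medians.

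Importin alphas are adaptors that bind the classical nuclear localisation signal of a cargo and hand it to importin beta. Of 5 measured, 3 were lower and 2 higher, none by 1.5-fold (median -0.45). The 3 make up 60% of the 5, beside 47.0% of all measured genes that were lower. Kpna2, an importin alpha abundant in dividing cells, had 6945 in early bulge and 10279 in ORS (log2 ratio -0.57). Kpna3 and Kpna4, which form a subfamily, had -0.52 and -0.45, and each of their probe sets was lower. Kpna1 and Kpna6, which belong to another subfamily, were not lower. Kpna1 had 1062 in early bulge and 1038 in ORS (0.03), with its 4 measured probe sets between -0.16 and 0.47. Kpna6 had 1385 in early bulge and 1010 in ORS (0.46), and its second probe set gave 0.59. Kpna6 was the only gene of the 29 with several measured probe sets for which all of them were higher in early bulge. The sign for Kpna6 was positive under every alternative run, whereas that of Kpna1 changed.

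Importin beta and its relatives bind the pore directly and, in most cases, their cargo as well. Of 11 measured, 10 were lower, 3 of which passed 1.5-fold, and 1 was higher (median -0.52). The 3 make up 27.3% of the 11, beside 12.8% of all measured genes lower by that size. Ipo5, an importer of ribosomal proteins, had 3050 in early bulge and 5142 in ORS, 1.69-fold lower, and its other probe sets gave -0.99 and -0.39. Tnpo1, the importer of hnRNP proteins, had 2837 and 4524, 1.59-fold lower, with a second probe set at -0.72 and a further one, with the ORS signal below the floor, at a bound of 0.05. Ipo7, which imports ribosomal proteins and histones, had 2692 and 4074, 1.51-fold lower, with a second probe set at -0.35. On their main probe sets these 3 were lower by 1.51-fold to 1.69-fold, while their other probe sets ran from -0.99 to 0.05.

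Kpnb1, importin beta itself and the partner of all importin alphas, had 3634 in early bulge and 5339 in ORS, 1.47-fold lower (log2 ratio -0.56). Its 4 probe sets were all lower but spread widely, and 1 of them, at -0.39, is a bound with the early bulge signal below the floor. One had signals of 1362 and 2826 (-1.05), and another had 3643 and 3703 (-0.02). Kpnb1 was the transport receptor with a probe set at least 2-fold apart.

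Ipo8, a relative of Ipo7, had a log2 ratio of -0.57 on its main probe set, but its 2 dim ones gave 0.17 and 0.75, the second a bound because its ORS signal of 41.9 was below the floor. The mean over all 3, which rests on that bound, was 0.12. Ipo9, an importer of histones and actin, had -0.52 with all 3 probe sets between -0.58 and -0.49. Ipo11 had -0.41 and Ipo13, which carries cargo in both directions, -0.24. Ipo4 had -0.12 and Tnpo3, the importer of SR splicing factors, -0.10. Tnpo3 was the import receptor with the ratio closest to 0, with signals of 1984 in early bulge and 2132 in ORS, and 1 of its 3 probe sets was higher (0.15). Tnpo2, a close relative of Tnpo1, was the higher one, with 439 in early bulge and 378 in ORS (0.22) and other probe sets at -0.14 and 0.59. The main probe sets of Tnpo1 and Tnpo2 thus lay on opposite sides of 0, but each gene had probe sets on both sides. After median centring the ratio of Tnpo2 was 0.001.

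The exportins went both ways. Xpo1, the main exporter of proteins with a leucine-rich export signal, had 3900 in early bulge and 6495 in ORS, 1.67-fold lower (log2 ratio -0.74). A second bright probe set of Xpo1 gave 4083 and 4958 (-0.28). Xpo7, a receptor with a broad set of cargoes, had -0.29, with other measured probe sets at -0.74 and -0.91. Xpo4, which exports a translation factor, had 385 in early bulge and 343 in ORS (0.17), but its other probe set gave -0.56 and the mean over both was below 0 (-0.20). Xpo6, the exporter of actin with profilin, had 1768 in early bulge and 1366 in ORS (0.37) on its single probe set. Its sign was positive under every alternative in which it had a value, and it had none without suffixed probe sets.

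Across all 90 measured probe sets of the 38 genes, 75 were lower in early bulge, beside 46.5% of all measured probe sets. Among 29 genes with more than 1 measured probe set, 19 had all of them lower, 1 had all higher and 9 had both signs. Probe sets of 1 gene were read from the same RNA, so their spread is no measure of replicate error. They can also match different transcripts of a gene, and which part of the spread is technical was not tested. Over 86 pairs of probe sets within these genes the log2 ratios differed with an SD of 0.54, and over 18642 such pairs of all genes with one of 0.59. That spread is about as large as the 1.5-fold threshold, so the order of single genes within a role is not settled by these arrays.

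Pore and Ran cycle genes with other names mostly went in the same direction. Of 21 measured from a list of 24, 19 were lower in early bulge, beside 47.0% of all measured genes (median log2 ratio -0.32). The 2 higher ones were Ddx19b (0.46) and Nxf1 (0.07, other probe set -0.59). Some genes with a lower main probe set had another that was higher, such as Gle1 (0.49), Ranbp2 (0.41) and Ranbp3 (0.29). Of the 19 lower genes, 3 passed 1.5-fold. The 3 make up 14.3% of the 21, near the 12.8% of all measured genes that were lower by that size. Ranbp1, which helps Ran hydrolyse GTP outside the nucleus, had 2716 in early bulge and 6131 in ORS, 2.26-fold lower. Cse1l, the exporter that returns importin alpha to the cytoplasm, had 3932 and 6467, 1.64-fold lower. Rcc1, the chromatin-bound factor that loads Ran with GTP, had 445 and 724, 1.63-fold lower. Each of these 3 genes had 1 measured probe set. Ran itself had 16187 in early bulge and 20439 in ORS (-0.34), with 5 probe sets between -0.49 and 0.16. The Y complex subunits Seh1l and Sec13 had -0.28 and -0.33, and the 6 measured probe sets of Seh1l ran from -0.80 to 0.36.

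The count of genes lower by at least 1.5-fold changed with median centring and little with the other scalings. It was 12 as deposited, 12 after quantile normalization (14.2% of all genes) and 11 after loess scaling (14.7%). Centring each array on its median moved the median of all genes by -0.21, to -0.17, and gave 25 of the 38 genes lower by at least 1.5-fold, beside 21.0% of all measured genes under that scaling. Of all genes at least 1.5-fold apart, 65.0% were then lower in early bulge, in place of 42.8%, and of those 2-fold apart 59.0% in place of 39.6%. Relative to the median of all genes, the median of the 38 was -0.56 as deposited and -0.57 after centring.

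**Figure D4:**
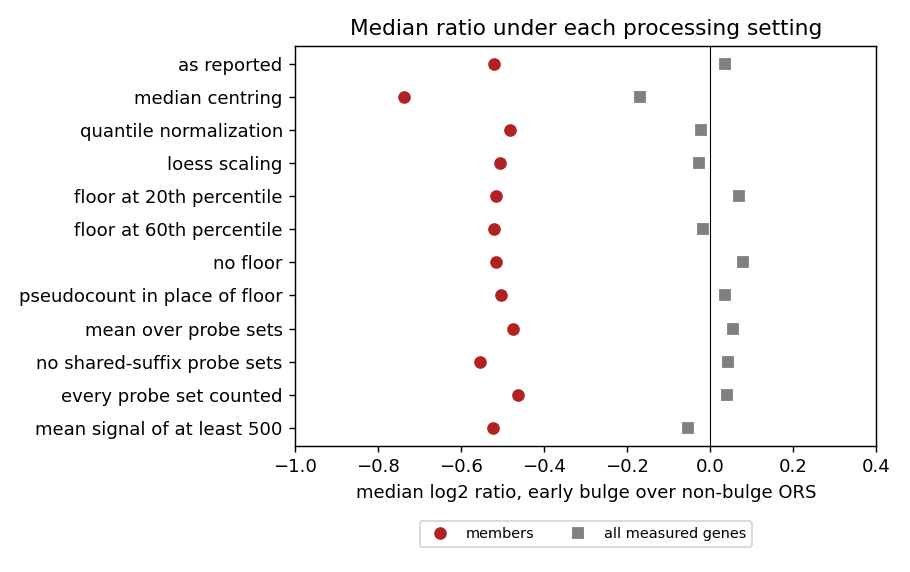
Median log2 ratio of early bulge over non-bulge ORS (horizontal axis) for the pore and transport genes (circles) and for all measured genes (squares), 1 row per processing setting. Median centring moves both to the left, and the distance between them runs from -0.46 to -0.60 over all settings.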

How the data were processed

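Total RNA of each sorted population was hybridised as biotinylated cRNA to 1 Affymetrix array. Per the submitters' processing notes, the authors used MAS5 and Affymetrix Expression Console (no versions stated), and they deposited a linear signal intensity for each probe set. The 2% trimmed mean was 500.0 on both arrays, so both had been scaled to one target. No genome build is stated. Probe-level data and detection calls were not analysed here. MAS5 values are noisy when low, and the number of arrays limits the precision.

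Probe sets were named from the platform annotation as supplied. All 40 Entrez IDs of the examined genes were in a RefSeq table (GRCm38.p6), and no symbol changed. Signals below the 40th percentile of non-control signals (57.8) were set to it. Of several probe sets of a gene, the one with the highest mean log2 signal (main probe set) stood for it, and it was measured if 1 array reached the floor. Genes were counted at 1.5-fold and 2-fold, and no test was possible. The genes and lists were chosen with earlier results of these data known. All examined genes are named, with both signals for those 1.5-fold apart, with a probe set 2-fold apart, or nearest to 0 in their role. Further values (Ran and Kpna2, for example) were added after they were seen. Alternatives were median centring, quantile normalization, loess (span 0.4), a floor at the 20th or 60th percentile, no floor, a pseudocount, the mean over probe sets, no suffixed probe sets (_s, _x, _a) and each probe set on its own. A limit to mean signals of at least 500 was chosen after seeing the data. Counting was tested on simulated arrays. Python 3.11.15, numpy 2.4.6 and pandas 2.3.3 were used.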

Additional observations from a re-analysis of the deposited data

How the results depend on the processing

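The median of the 38 genes was below 0 under all 11 alternatives, and it moved by more than 0.1 only after median centring (-0.74). Not all of these alternatives could have reversed it. Median centring only lowered the ratios, and the other floors and the pseudocount left the sign of each of the 38 genes unchanged. The count lower by at least 1.5-fold was 25 after median centring (21.0% of all genes) and 29 when each of the 90 probe sets was counted on its own (12.3% of all probe sets), and between 11 and 13 under the other alternatives. The count lower by at least 2-fold was 7 after median centring and 4 among single probe sets. It was 1 with quantile normalization, with the mean over probe sets and without suffixed probe sets. As deposited, 4.78% of all genes were lower and 7.30% higher by 2-fold, and these shares are not given here for the alternatives. Genes higher by at least 1.5-fold numbered 1 with the floor at the 20th percentile (22.6% of all genes) and 2 with no floor (25.5%). Among single probe sets, 4 were higher by that size (16.5% of all probe sets). With no floor, 1 gene was higher by 2-fold. With the lower floor or none, Kpna7 and Nup210l, dim on both arrays, entered the count. Signs of genes were compared only under alternatives that gave 1 value per gene. All 12 genes at least 1.5-fold apart kept their sign wherever they had such a value. Of 33 genes with a ratio below 0, 30 stayed below 0 (the exceptions were Ipo8, Nup214 and Tnpo3). Among these 30, single probe sets of Nup133 (0.69), Nup62 (0.30) and Tnpo1 (0.05, a bound) were higher in early bulge. Without suffixed probe sets, Nup85, Nup88, Nup107, Ipo4 and Xpo6 had no value. Among the 6714 genes with a mean signal of at least 500, 55.1% were lower in early bulge and 12.7% by at least 1.5-fold, beside 32 and 11 of the 35 pore and transport genes at that signal. The causes were not tested. No replicate could be left out and no paired analysis was possible because each population has 1 array.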

Other observations

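Probe sets outside the naming rule gave values in the same direction. The 2 probe sets of Xpo5, the exporter of precursor microRNAs that the rule left out, had signals of 562 in early bulge and 848 in non-bulge ORS (log2 ratio -0.59) and of 207 and 509 (-1.30). A probe set shared by Ipo4 and Tm9sf1 gave -0.16, one shared by Xpo4 and Lats2 gave -0.46, and one shared by Kpna4 and another transcript gave -0.23. The value of a shared probe set cannot be assigned to either of its genes.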
